A study of Mus musculus with 32 samples.

Results

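The matrix metalloproteinases (MMPs), the ADAMTS proteases and the tissue inhibitors of metalloproteinases (TIMPs) were followed through 8 groups of mouse liver and tumor cells. Every probe for a gene, control spots apart, was taken whose gene name on the array begins with Mmp, Adamts or Timp and goes straight on with a number. This gave 66 of the 55681 probes, which carry 46 of the 34821 names given to probes on the array, counting those of unnamed transcripts: 23 Mmp genes with 29 probes, 19 Adamts genes with 32 probes and 4 Timp genes with 5 probes. This rule used the names alone, but the family was chosen with earlier results of these data known. A gene with several probes is described by the probe with the highest mean level over the 32 samples, and levels are log2 intensities unless stated otherwise. Positions of probes are those of the array files, on mm9, and where they lie in a transcript was not analysed here.

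MMPs are zinc proteases that are secreted or held at the cell surface as inactive precursors, and together they cleave nearly every protein of the extracellular matrix. ADAMTS proteases are secreted relatives that trim proteoglycans, mature procollagens or cut von Willebrand factor, and TIMPs block the active site of MMPs and, in the case of TIMP3, of ADAMTS proteases as well. In the liver the balance of these proteases and inhibitors sets how the matrix around the sinusoids is broken down and deposited, and the family is much studied in fibrosis and in metastasis.

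The livers came from young male Balb/c mice. The tumor-bearing mice had received murine C26 colorectal cancer (CRC) cells, which are syngeneic with that strain, in the spleen, and the control mice had received PBS there. Endothelial (EC), Ito (IC) and Kupffer (KC) cells were taken from control livers and the same cells of the tumor microenvironment (TME), ET, IT and KT, from livers with metastases, while TM are tumor liver metastasis cells and TP are CRC primary cells. Endothelial cells line the sinusoids, Ito cells are the stellate cells that store vitamin A and lay down collagen, and Kupffer cells are the resident macrophages. Each group held 4 samples. The liver cells were fractions of a collagenase digest, separated on density gradients and by adherence and then cultured briefly, so they are enriched cultures and not pure populations. All tumor cells descend from 1 cell line. How the TM and TP cells were isolated, and whether a sample pooled several animals, is not given in the sources used here. The methods call the 4 samples of a group biological replicates.

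Each of the 16 arrays carried 1 sample in Cy3 and 1 in Cy5. Control and TM samples were labelled with Cy3, TME and TP samples with Cy5, and a TME sample shared its array with the control sample of the same number. No dyes were swapped, so a dye effect cannot be told apart from a TME effect, nor from a difference between TP and TM. Endothelial and Ito arrays lay on slide 1, Kupffer and tumor arrays on slide 2, so that slide and cell type cannot be told apart between Kupffer cells and the other liver cells. Of the 59305 spots, 38.4 to 57.1% per sample were well above background and none was saturated.

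Several samples lay apart from their group. Over the 17105 probes well above background everywhere, IC replicate 4 was nearest to IT replicate 1 (mean absolute log2 difference 0.161, against at least 0.499 to its own group), and IT replicate 4 was nearest to IC replicate 1 (0.189, against at least 0.464). In the same way KC replicate 4 was nearest to KT replicate 1 (0.158 against 0.35) and KT replicate 4 to KC replicate 1 (0.157 against 0.32). ET replicate 2, IT replicate 2 and KC replicate 3 were farther from their groups than the other samples were from each other, TM replicates 2 and 3 were 0.206 from each other and up to 0.63 from the rest of their group, and EC replicates 1 and 4 (0.083) and 2 and 3 (0.093) formed close pairs. Whether these pairs are separate animals or repeats of 1 preparation is not given in the sources used here. Over the same probes the TME minus control differences of array 4 had correlations of -0.66 (Ito) and -0.598 (Kupffer) with the mean of the other arrays of their cell type, where those of arrays 1 to 3 had 0.188 to 0.285 and 0.409 to 0.468. An exchange of samples or dyes on these arrays was not tested, and it would turn the sign of their differences. All samples kept the group of their label, and results that rest on those standing apart are given with and without them.

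The markers of the labelled cells were checked with lists of measured genes. Of the 12 Ito cell markers, 11 to 12 were well above background in each IC sample, 10 to 11 in each IT sample and 11 to 12 in each EC sample. Between EC and IC, 2 of them were higher in EC and none was lower. *Lrat*, which makes the stored vitamin A ester, was well above background in 2 of 4 IC samples and 0 of 4 IT samples. These markers do not set the Ito fraction apart from the endothelial one, so the Ito label here names only the fraction. The study itself checked its fractions by immunochemistry, with ASMA for Ito cells, and reported high purity. Of the 10 measured Kupffer cell markers, 6 were higher in KC than in EC and 1 was higher in KC than in IC. All 10 were well above background in every liver sample. Of the 10 endothelial markers 4 were higher in EC than in IC. Of the 6 epithelial markers 2 to 3 were well above background in each TM and TP sample, while *Epcam* was so in none of these samples. Between TM and KC, and between TP and KT, 1 of the 6 was higher and 1 lower in the tumor cells. The summed level of the 6 was 17.23 in IT replicate 2 but 12.20 to 12.35 in the other IT samples.

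Of the 46 genes, 12 were well above background in all 32 samples, 21 in all 24 liver samples and 12 in all 8 tumor samples. *Mmp7* and *Adamts13* were well above background in all 24 liver samples and in 0 of 8 tumor samples. No sample had a level well above background for 10 genes, namely *Mmp1a*, *Mmp15*, *Mmp16*, *Mmp20*, *Mmp21*, *Adamts3*, *Adamts16*, *Adamts17*, *Adamts18* and *Adamts19*. These 10 have no level to compare. The 25 genes that were well above background throughout 1 or more groups fall into those brighter in the tumor cells, those brighter in the liver cells and a few, such as *Mmp25*, that stand out in 1 liver fraction.

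**Figure D1:**
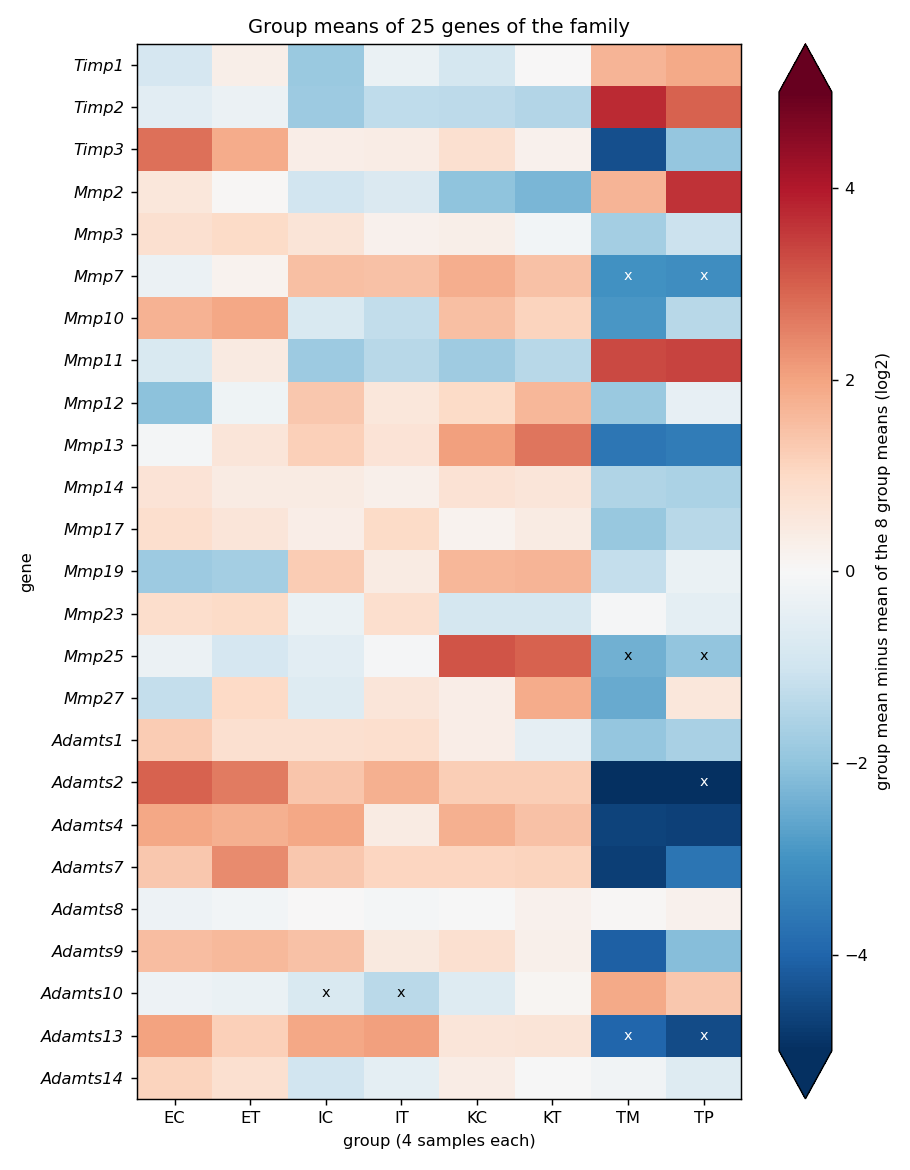
Rows are the 25 genes well above background throughout 1 or more groups, columns are the 8 groups, and the colour is the group mean minus the mean of the 8 group means of that gene, in log2 units, with values beyond 5 in the end colours. A cross marks a group in which no sample was well above background. *Timp1*, *Timp2*, *Mmp2* and *Mmp11* are red in TM and TP, while *Adamts2*, *Adamts4*, *Adamts7*, *Adamts13*, *Mmp7* and *Mmp13* are blue there.

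The tumor cells differed from Kupffer cells of the same slide and dye over much of the family, as over much of the array. They had more *Timp1*, *Timp2*, *Mmp2* and *Mmp11* and less *Timp3*, *Mmp7*, *Mmp13*, *Mmp25* and *Adamts2*, *Adamts4*, *Adamts7*, *Adamts9* and *Adamts13*. Between TM and KC, 29 of the 66 probes (43.9%) were called at an adjusted p under 0.05, 9 higher and 20 lower in TM, against 39.4% of all probes (23.3% higher and 16.2% lower). Between TP and KT, 33 (50%) were called, 13 higher and 20 lower in TP, against 43.6% of all probes (25.7% higher and 17.8% lower). Both shares lie near those of all probes. Some probes called higher were well above background in no sample, those of *Adamts17* and *Mmp24* in TM and of *Adamts3*, *Adamts10*, *Adamts12* and *Mmp21* in TP. With dim probes filtered out, 7 were higher and 20 lower in TM, and 7 higher and 18 lower in TP. Of the 29017 probes kept by this filter, 19301 and 20251 were then called, which is 34.7 and 36.4% of the 55681 probes before it. At the limits of the study's methods, which ask for 4-fold or more at an adjusted p under 0.001, 23 probes (34.8%) were called between TM and KC against 14.3% of all probes, and 13 (19.7%) between TP and KT against 15.9%. The median absolute difference of the 66 probes was 1.027 on the log2 scale between TM and KC, where that of all probes was 0.557, and 0.959 between TP and KT, where it was 0.611.

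In bulk samples fewer cells of a type and less RNA per cell cannot be told apart. All 10 measured Kupffer cell markers were lower in the tumor cells in both comparisons, and their summed level was 17.18 to 19.36 in KC, 18.18 to 18.96 in KT, 11.19 to 12.91 in TM and 10.68 to 12.32 in TP on a log2 scale. In each comparison 9 of the 10 endothelial, 7 of the 8 hepatocyte and 5 of the 9 neutrophil markers were lower in the tumor cells as well, and 1 neutrophil marker was higher in TP. The 12 Ito cell markers were mixed, 2 higher and 7 lower in TM than in KC, and 3 higher and 4 lower in TP than in KT. Their summed level was 14.59 to 17.19 in TM and 15.62 to 16.99 in TP, against 16.39 to 16.71 in KC and 16.28 to 16.71 in KT. The part of these cell types in the differences of the family was not tested.

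These 2 comparisons have no sample in common. In both, 25 probes were called in the same direction, which is 86.2% of the calls between TM and KC and 75.8% of those between TP and KT, and 0 were called in opposite directions. Over all probes the calls shared in this way were 84.5% and 76.6%, and 26 probes were called in opposite directions, so the shares of the family lie near those of all probes. Counted by gene, *Timp1*, *Timp2*, *Mmp2*, *Mmp11* and *Adamts10* were higher in both and 15 genes were lower in both. Scaling every sample to its 75th percentile moved the median difference of all probes from 0.08 to 0.50 between TM and KC and from 0.10 to 0.61 between TP and KT. The calls then were 16 higher and 20 lower in TM, against 48.3% of all probes called, and 26 higher and 20 lower in TP, against 57.1%. Folds of genes that are dim in 1 of the groups depended on the background correction, and for several of these the value after normexp correction and loess normalization stands beside the fold.

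**Figure D2:**
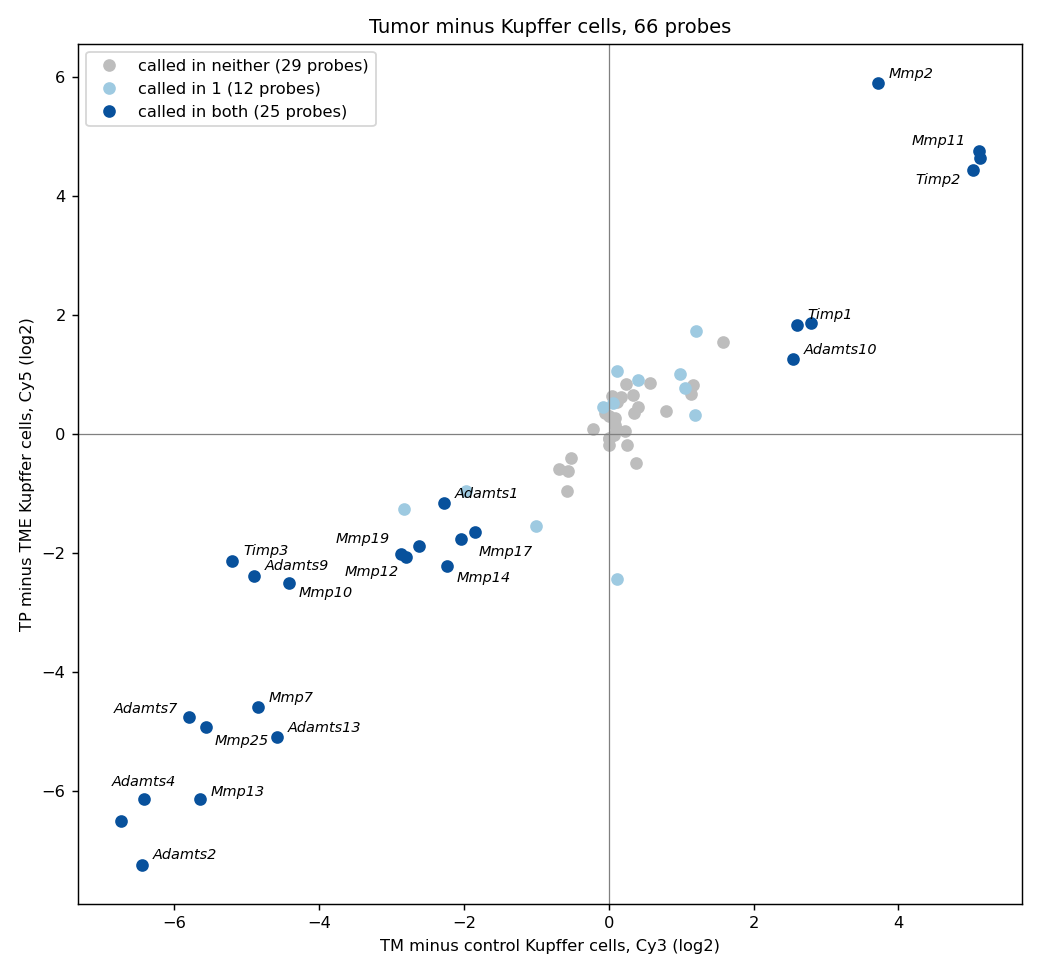
Each point is 1 of the 66 probes, with the difference between TM and control Kupffer cells (both Cy3) on the horizontal axis and the difference between TP and TME Kupffer cells (both Cy5) on the vertical axis, in log2 units as fitted, probes below background included. The 25 dark points were called in both comparisons, 7 higher and 18 lower in the tumor cells, and none of these 25 changes sign between the axes.

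The inhibitors split within their own family. *Timp1* (chrX:20451802-20451861), an inducible inhibitor of most MMPs, read 12.32, 12.38, 11.20 and 13.43 in KC replicates 1 to 4 and 14.91, 14.81, 14.98 and 15.03 in TM. It read 13.46, 13.46, 13.46 and 12.58 in KT and 15.16, 15.08, 15.00 and 15.11 in TP. Every tumor sample lay above every Kupffer sample. The difference was 2.60 ± 0.51 (SE) between TM and KC, 6.07-fold (adjusted p = 1.10e-04), and 1.84 ± 0.51 between TP and KT, 3.59-fold (adjusted p = 0.00363).

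*Timp2* (chr11:118163146-118163205), which inhibits MMPs but also brings pro-MMP2 to its activator MMP14 at the cell surface, had the smallest adjusted p of the family in both comparisons among probes well above background on all arrays compared. Its levels were 10.94, 10.89, 11.19 and 10.67 in KC and 15.62, 16.30, 16.13 and 15.78 in TM. They were 10.85, 10.88, 10.74 and 10.58 in KT and 15.20, 15.34, 14.89 and 15.36 in TP. All tumor samples lay far above all Kupffer samples, 32.7-fold in TM (5.03 ± 0.31, adjusted p = 2.49e-13) and 21.7-fold in TP (4.44 ± 0.31, adjusted p = 2.48e-12). The other probe of *Timp2* gave smaller differences in the same direction, 2.79 and 1.87.

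*Timp3* (chr10:85811696-85811755), the inhibitor that binds to the matrix and also blocks ADAMTS proteases, went the other way. KC read 14.09, 14.08, 13.45 and 12.46 and TM read 11.44, 5.50, 5.93 and 10.39. KT read 12.53, 12.71, 12.75 and 13.80 and TP read 10.57, 10.17, 11.07 and 11.44. No tumor sample reached a Kupffer sample of the same dye, and TM replicates 2 and 3, which also lay apart over all probes, were the lowest of the 32. The difference was -5.20 ± 0.79 between TM and KC (adjusted p = 3.98e-06) and -2.13 ± 0.79 between TP and KT (adjusted p = 0.0307). Without TM replicates 2 and 3 the difference between TM and KC was -2.61 (adjusted p = 1.39e-05), and after normexp and loess it was -4.50. Between TP and KT the call was lost with any 1 replicate left out, at adjusted p = 0.0718, 0.101, 0.0612 and 0.0871 without replicates 1 to 4.

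*Timp4* (chr6:115196120-115196179), an inhibitor mainly of heart and muscle, was well above background in 3 of 24 liver samples and in 0 of 8 tumor samples. Its measured values ran from 2.29 in KC replicate 1 to 5.05 in IT replicate 4, and no order can be read from them. In full they were 3.45, 3.41, 2.43 and 2.84 in EC, 4.16, 3.24, 2.77 and 4.28 in ET, 2.74, 5.0, 2.82 and 3.60 in IC and 2.41, 4.95, 3.19 and 5.05 in IT. In the remaining groups they were 2.29, 3.25, 2.36 and 2.31 in KC, 2.99, 3.20, 2.40 and 3.06 in KT, 2.42, 2.32, 2.31 and 4.12 in TM and 3.98, 4.73, 3.71 and 2.59 in TP. The 3 values well above background were ET replicate 4, IC replicate 2 and IT replicate 4.

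**Figure D3:**
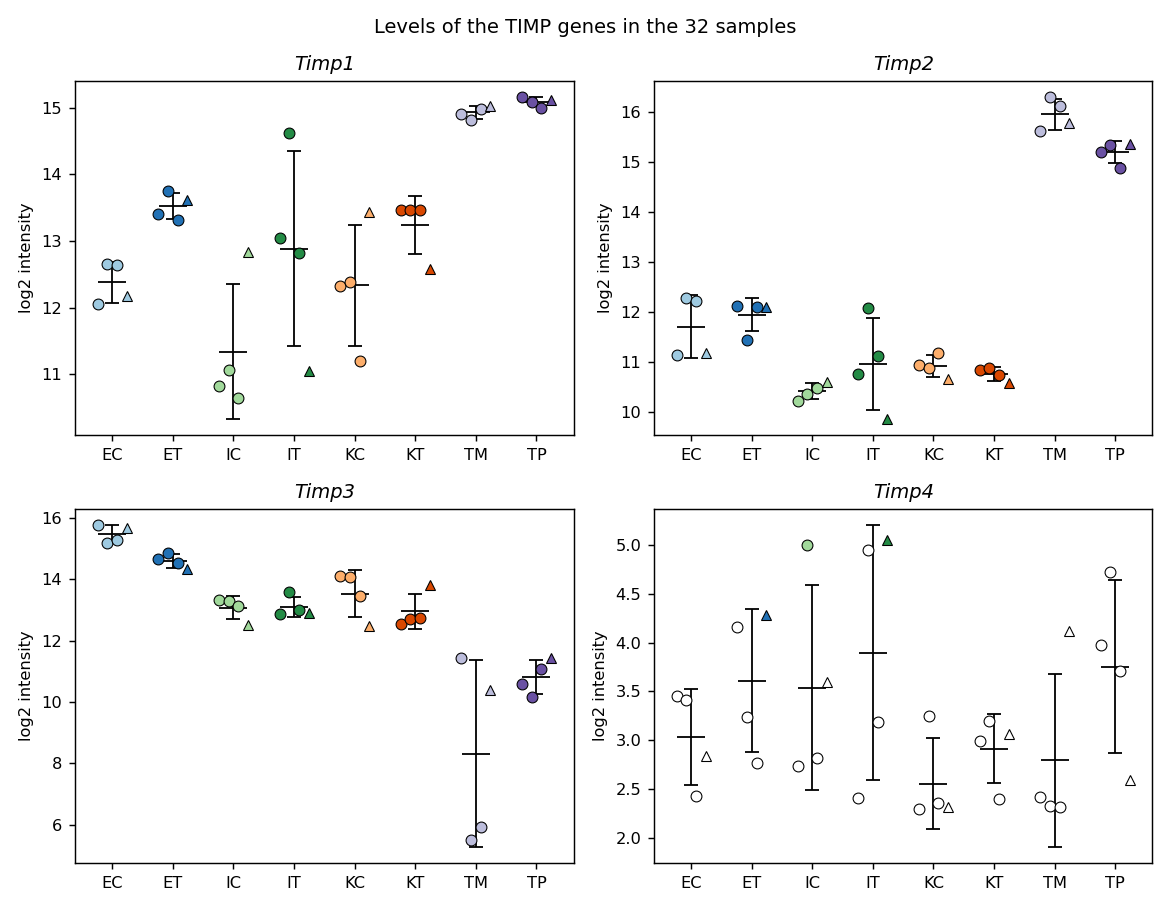
Each point is the log2 intensity of 1 of the 32 samples, triangles are replicate 4, open symbols are not well above background, and bars are the mean ± SD of the 4 samples of a group. *Timp1* and *Timp2* are highest in TM and TP, and *Timp3* is highest in EC (mean 15.47) and lowest in TM (mean 8.32). In the panel of *Timp1* the triangle lies above the circles in IC and KC and below them in IT and KT.

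The gelatinase *Mmp2* (chr8:95376840-95376899), which digests denatured collagen and basement membrane collagen and is activated by MMP14 with TIMP2, was higher in the tumor cells. It read 5.76, 5.45, 5.61 and 5.61 in KC and 10.51, 8.15, 6.30 and 12.37 in TM, widely spread but above every KC sample. KT read 5.16, 5.19, 5.43 and 5.59 and TP read 12.04, 12.47, 10.22 and 10.21. The difference was 3.72 ± 0.72 between TM and KC (13.2-fold, adjusted p = 1.10e-04) and 5.90 ± 0.72 between TP and KT (59.5-fold, adjusted p = 1.03e-07). Without TM replicates 2 and 3, the lowest TM samples, the first was 5.83 (adjusted p = 4.1e-10). After normexp and loess the differences were 2.76 (6.76-fold) and 4.45 (21.8-fold). The other gelatinase, *Mmp9*, a product of neutrophils and macrophages, was well above background in no TP sample and at least 1.32-fold lower there than in KT (adjusted p = 0.024). Its samples overlapped with those of KT. This bound, like each "at least" here, compares the brighter group's mean with the dimmest signal still counted as above background in the other group, on loess-normalized values, and is open to dye bias.

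Of the 4 genes classed as collagenases only *Mmp13*, the main interstitial collagenase of rodents, was called, and it was lower in the tumor cells. KC read 14.63, 14.92, 12.96 and 14.98 and TM read 7.29, 9.03, 8.66 and 9.95. KT read 14.96, 15.03, 15.08 and 14.88 and TP read 10.60, 8.95, 7.47 and 8.37. The groups were far apart, with differences of -5.64 ± 0.57 (49.8-fold, adjusted p = 3.54e-09) and -6.14 ± 0.57 (70.6-fold, adjusted p = 6.17e-10).

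Among the stromelysins, *Mmp11* and *Mmp10* moved in opposite directions. *Mmp11* (chr10:75386024-75386083), which is activated by furin inside the cell and is known from the stroma of carcinomas, read 5.50, 5.05, 5.30 and 6.20 in KC and, in TM, 9.89, 10.56 and 11.34 in replicates 1, 3 and 4, with replicate 2 between the last 2. It read 6.30, 5.84, 6.27 and 5.30 in KT and 11.21, 11.10, 10.16 and 10.26 in TP, again without overlap. Its difference was 5.11 ± 0.43 in TM (34.5-fold, adjusted p = 1.02e-10) and 4.76 ± 0.43 in TP (27-fold, adjusted p = 3.45e-10), and its other probe gave 5.12 and 4.64. After normexp and loess these were 15.1-fold and 14.3-fold, and 9.73-fold and 8.22-fold for the other probe. *Mmp10* was lower by 4.41 in log2 units in TM (difference -4.41 ± 0.94, adjusted p = 3.44e-04) and had a difference of -2.5 ± 0.94 in TP (adjusted p = 0.0331). Without TM replicates 2 and 3 the former was -2.5 (adjusted p = 0.0453), and without replicate 4 the latter was not called (adjusted p = 0.185). Normexp and loess gave *Mmp10* differences of -3.22 and -2.21. *Mmp3* was called in TM and not in TP (-1.97 ± 0.63, adjusted p = 0.0129, in TM), and its TM samples overlapped with KC through replicate 4 at 13.78.

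*Mmp7*, the small matrilysin that lacks the hemopexin domain, was well above background in all Kupffer samples and in no tumor sample. It read 7.23, 7.56, 7.13 and 6.16 in KC and 6.53, 6.40, 6.51 and 7.24 in KT. The tumor samples measured 1.85, 1.86, 1.86 and 3.14 in TM and 2.52, 1.87, 1.87 and 2.04 in TP, all below the limit of measurement. It was at least 2.81-fold lower in TM than in KC (adjusted p = 6.65e-12) and at least 2.15-fold lower in TP than in KT (adjusted p = 1.61e-11). The macrophage elastase *Mmp12* had a difference of -2.80 ± 0.81 in TM and -2.06 ± 0.81 in TP, with overlap in both (adjusted p = 0.00599 and 0.0402). The first was not called without TM replicates 2 and 3, and the second not without replicate 4 (adjusted p = 0.18). After normexp and loess they were -1.66 and -1.42. The other probe of *Mmp12* was called in the opposite direction, higher in TP than in KT by 0.91 (adjusted p = 0.00726). It was well above background in no TP or KT sample.

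Of the 6 membrane-type MMPs, 3 were lower in both kinds of tumor cells and none was higher by its brightest probe. Another probe of *Mmp24*, well above background in no sample, was called in TM (adjusted p = 0.013). *Mmp25* (chr17:23767090-23767149), a membrane-anchored MMP of leukocytes, read 7.78, 7.80, 8.10 and 7.83 in KC and 7.62, 7.65, 7.49 and 7.99 in KT. It measured 2.33, 2.35, 2.30 and 2.31 in TM and 2.65, 2.62, 2.58 and 3.18 in TP, never well above background. This put it at least 3.55-fold lower in TM (adjusted p = 4.52e-11) and at least 2.63-fold lower in TP (adjusted p = 3.89e-10). *Mmp14*, the membrane-type enzyme that activates pro-MMP2, differed by -2.23 ± 0.30 in TM and -2.22 ± 0.30 in TP, with adjusted p = 4.34e-07 and 4.19e-07. *Mmp17* differed by -2.04 and -1.77 ± 0.21 and was well above background in 1 of 4 samples of each kind of tumor cell. With normexp and loess its differences shrank to -0.82 (1.77-fold) and -0.87 (1.83-fold), still called.

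The ADAMTS proteoglycanases, which cut aggrecan and versican, were lower in the tumor cells for 3 of 7 genes in both comparisons. *Adamts4* (chr1:173189952-173190011) read 13.62, 13.65, 13.91 and 13.18 in KC and 5.99, 7.47, 7.32 and 7.94 in TM. KT read 13.16, 13.15, 13.21 and 13.71 and TP read 7.75, 7.51, 6.29 and 7.14. The separation was wide, -6.41 ± 0.62 (85.1-fold, adjusted p = 1.78e-09) and -6.13 ± 0.62 (70.2-fold, adjusted p = 3.54e-09), with 59.2-fold and 45.2-fold after normexp and loess, and its other probe was at least 9.92-fold and at least 5.77-fold lower.

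*Adamts9* (chr6:92723051-92723110) was less even among the tumor samples. It read 10.11, 9.91 and 9.35 in KC replicates 1, 3 and 4, with replicate 2 between the first 2 of these, and 7.63, 2.05, 2.76 and 7.33 in TM, where replicates 2 and 3 were not well above background. KT read 9.01, 8.98, 9.05 and 10.09 and TP read 6.79, 5.99, 7.76 and 7.08. The groups did not overlap, and the differences were -4.90 ± 0.80 (adjusted p = 1.05e-05) and -2.38 ± 0.80 (adjusted p = 0.0168). The first was -2.37 (adjusted p = 2.1e-04) without TM replicates 2 and 3, and the second missed the threshold without replicate 2 (adjusted p = 0.0715) or 4 (adjusted p = 0.0759). Normexp and loess gave -2.86 (7.25-fold) and -1.89. The other probe of *Adamts9*, well above background in 21 of 24 liver and 0 of 8 tumor samples, gave -2.62 and -1.88. After normexp and loess that probe gave -0.71 (1.63-fold) and -0.39 (1.31-fold). *Adamts1* had differences of -2.28 and -1.16, both ± 0.31 and called. *Adamts5*, the other main aggrecanase, was higher in TP than in KT by 1.74 ± 0.55 (adjusted p = 0.0104), and in TM its 4 samples read 6.88, 3.51, 2.98 and 6.83. Without TM replicates 2 and 3, the low ones, *Adamts5* was also higher in TM than in KC, by 3.01 (adjusted p = 1.45e-09), and after normexp and loess it was called in both, at 0.61 and 0.67.

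*Adamts2* (chr11:50617472-50617531), which removes the amino-terminal propeptide of fibrillar procollagens, showed the widest range of group means in the family, 8.96. It read 10.31, 10.36, 9.94 and 10.27 in KC and 10.09, 10.16, 10.31 and 10.26 in KT. In TM it measured 2.05, 4.06, 1.94 and 7.07, of which the last alone was well above background, and in TP 4.99, 2.01, 1.94 and 2.94, none well above background. The difference was -6.44 ± 0.72 between TM and KC (adjusted p = 2.29e-08), and TP was at least 15.7-fold lower than KT (adjusted p = 2.45e-09). With 1 TM sample measured, the size of the former depends on the correction, being -3.95 (15.4-fold) after normexp and loess. The other probe of *Adamts2*, well above background in 18 of 24 liver and 0 of 8 tumor samples, gave far smaller differences, -1.84 and -1.64. After normexp and loess these were -0.32 (1.25-fold) and -0.40 (1.32-fold), still called.

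*Adamts7* (chr9:90094878-90094937), which cuts cartilage oligomeric matrix protein (COMP), read 9.84, 9.73, 9.39 and 9.61 in KC and 3.85, 2.10, 2.36 and 7.06 in TM. KT read 9.64, 9.62, 9.52 and 9.87 and TP read 6.13, 7.05, 2.32 and 4.14. The tumor samples spread widely, 1 of 4 in TM and 2 of 4 in TP being well above background, but stayed below all Kupffer samples (-5.80 ± 0.78, adjusted p = 4.98e-07, and -4.75 ± 0.78, adjusted p = 9.75e-06). After normexp and loess the differences were much smaller, -3.10 (8.56-fold) and -2.85 (7.21-fold), and still called.

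*Adamts13* (chr2:26852318-26852377), the von Willebrand factor protease that the liver supplies to the blood, read 7.56, 7.56, 6.05 and 6.86 in KC and 6.85, 6.86, 6.59 and 7.84 in KT. It measured 1.89, 3.27, 1.88 and 2.66 in TM and 1.91, 1.92, 1.90 and 2.01 in TP, none well above background. It was at least 2.92-fold lower in TM (adjusted p = 2.38e-11) and at least 2.54-fold lower in TP (adjusted p = 2.51e-12). Against this, *Adamts10*, a protease of fibrillin microfibrils, was higher in the tumor cells, by 2.55 ± 0.42 in TM without overlap and by 1.26 ± 0.42 in TP with overlap (adjusted p = 1.39e-05 and 0.0162). *Adamts10* was well above background in 2 of 4 KC, 3 of 4 KT, 4 of 4 TM and 2 of 4 TP samples, and after normexp and loess its differences were 0.69 (1.61-fold) and 0.43 (1.35-fold), both called.

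Between TP and TM, labelled in different dyes, 2 probes were called, against 3.01% of all probes. They were probes of *Adamts12* and *Mmp21* that were well above background in no sample, and neither was called after normexp background correction or after scaling to the 75th percentile. At an unadjusted p under 0.05 stood 12 probes, 9 higher and 3 lower in TP, against 16.4% of all probes. *Timp3* (2.5 ± 0.79, adjusted p = 0.0859), *Mmp2* (1.90 ± 0.72, adjusted p = 0.163) and *Mmp27* (3.08 ± 0.88, adjusted p = 0.0541) were not called, each with low values in TM replicates 2 and 3. Without replicate 4, 6 probes were called against 4.22% of all probes, all higher in TP, *Mmp2* (3.26, adjusted p = 0.00233) and *Timp3* (2.98, adjusted p = 0.049) among them. Without TM replicates 2 and 3, a choice made after seeing the data, 1 was called, a probe of *Adamts17* never well above background, against 0.923% of all probes. The call therefore turns on which tumor samples are taken.

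The endothelial and Ito fractions, which lay on 1 slide and can be compared within a dye, differed in a small set of genes. Between EC and IC 9 probes (13.6%) were called, 5 higher and 4 lower in EC, against 9.89% of all probes (5.72% higher and 4.17% lower). Between ET and IT 9 probes were called, 7 higher and 2 lower in ET, against 8.26% (4.78% higher and 3.48% lower). Scaling to the 75th percentile gave 3 higher and 5 lower between EC and IC (11.1% of all probes called), and 7 higher and 4 lower between ET and IT (8.23%), with the median difference of all probes moved from -0.01 to -0.29 and from 0 to -0.30. Normexp background correction gave 8 higher and 3 lower between EC and IC with quantile normalization and 9 and 3 with loess, where 10.2 and 10.9% of all probes were called. Averaging the close pairs of EC samples left 5 calls between EC and IC, against 4.30% of all probes. *Timp2* was higher in EC, where it read 11.14, 12.29, 12.23 and 11.18, than in IC, where it read 10.23, 10.36, 10.48 and 10.61. The difference was 1.29 ± 0.31 without overlap (adjusted p = 0.0065), and between ET, at 12.13, 11.45, 12.11 and 12.10, and IT, at 10.76, 12.08, 11.12 and 9.86, it was 0.99 ± 0.31 with overlap through IT replicate 2 (adjusted p = 0.0454). The call between EC and IC was lost without replicate 2 (adjusted p = 0.0834) or 3 (0.0698), and that between ET and IT without replicate 1 (0.208), 3 (0.138) or 4 (0.338). *Timp3* read 15.77, 15.17, 15.27 and 15.67 in EC and 13.31, 13.30, 13.13 and 12.52 in IC, without overlap, but its difference of 2.41 ± 0.79 missed the threshold (adjusted p = 0.0542). In ET it read 14.67, 14.86, 14.52 and 14.32 and in IT 12.87, 13.57, 12.98 and 12.91, again without overlap (1.51 ± 0.79, adjusted p = 0.295).

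*Mmp7* was lower in the endothelial than in the Ito fraction under both conditions. It read 5.14, 4.06, 5.54 and 4.99 in EC and 6.48, 7.36, 6.71 and 6.33 in IC (-1.79 ± 0.35, adjusted p = 0.00108). It read 5.07, 5.65, 5.79 and 4.90 in ET and 6.45, 6.24, 6.57 and 7.41 in IT (-1.31 ± 0.35, adjusted p = 0.0181). Neither pair of groups overlapped, but *Mmp7* was not called between ET and IT without replicate 1 (adjusted p = 0.0767) or 4 (0.201). *Mmp11* read 6.41, 6.56, 6.59 and 6.61 in EC and 5.23, 5.47, 5.18 and 6.03 in IC, and 8.07, 7.02, 7.99 and 7.94 in ET and 5.39, 7.73, 5.70 and 4.88 in IT. It was called between ET and IT (1.83 ± 0.43, adjusted p = 0.00654), where IT replicate 2 lay within the range of ET, and not between EC and IC (1.06 ± 0.43, adjusted p = 0.13). Without replicate 1, 3 or 4 the former was lost (adjusted p = 0.077, 0.0607 and 0.0854). The difference between these differences was not tested.

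Further genes of this set were named after their values were seen. *Mmp19*, a stromal MMP also found in macrophages, lay between 6.25 and 6.55 in EC and between 9.06 and 9.65 in IC (-3.10 ± 0.59, adjusted p = 7.51e-04), and *Mmp12* lay between 5.98 and 6.65 in EC and between 9.50 and 9.92 in IC (-3.38 ± 0.81, adjusted p = 0.0064). *Adamts14*, a procollagen N-proteinase, went the other way, at up to 11.15 in EC and up to 9.32 in IC, without overlap (2.08 ± 0.39, adjusted p = 6.12e-04). Beside *Mmp12*, *Mmp19* and *Mmp7*, 4 of the 10 Kupffer cell markers were also lower in EC than in IC and none was higher, and their summed level was 15.77 to 16.25 in EC, 17.07 to 17.26 in IC replicates 1 to 3 and 19.02 in IC replicate 4. Hepatocyte markers moved the same way, 5 of 8 being lower in EC than in IC and 7 of 8 lower in ET than in IT, with summed levels of 14.85 to 15.03 in EC, 16.89 to 18.30 in IC, 13.62 to 15.09 in ET and 17.08 to 18.03 in IT. The part of Kupffer cells or hepatocytes in the differences between the endothelial and Ito fractions was not tested.

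The Kupffer fraction differed from the other liver fractions most clearly in *Mmp25*. Of the 10 measured Kupffer cell markers 1 was higher in KC than in IC, and their summed levels overlapped, at 17.18 to 19.36 in KC and 17.07 to 19.02 in IC. These markers hardly set KC apart from IC, so that comparison is one between fractions. Between KC and EC 12 probes (18.2%) were called, 5 higher and 7 lower in KC, against 21.0% of all probes (8.95% higher and 12.1% lower). Between KC and IC 4 probes (6.06%) were called, against 14.8%, 2 in each direction. Normexp background correction gave 4 higher and 1 lower between KC and IC with quantile normalization and 3 and 1 with loess, against 16.2 and 16.8% of all probes. With the close pairs of EC samples averaged, 6 calls were left between KC and EC, against 13.0% of all probes. In the fit of all groups both shares lie below those of all probes, and slide and cell type cannot be told apart here. *Mmp25* read 4.75, 3.79, 4.49 and 4.63 in EC and 3.47, 4.40, 4.17 and 4.72 in IC, each with 2 of 4 samples well above background, and it was higher in KC by 3.46 ± 0.45 (adjusted p = 2.19e-06) and by 3.69 ± 0.45 (adjusted p = 2.59e-06). After normexp and loess these were 1.71 (3.27-fold) and 1.80 (3.49-fold), both called. It stayed low in ET (4.26, 2.85, 3.80 and 4.57) and in IT (4.79, 6.06, 5.18 and 2.59), and none of these samples reached the 7.49 of the lowest Kupffer sample.

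*Adamts13* was lower in KC than in the other control cells, with 8.34, 8.40, 8.42 and 8.43 in EC and 8.52, 8.41, 8.45 and 7.86 in IC. Its difference from EC was -1.39 ± 0.36 (adjusted p = 0.00514) and from IC -1.30 ± 0.36 (adjusted p = 0.0123), without overlap. Both calls were lost without replicate 3 (adjusted p = 0.0614 and 0.141), of which the KC sample stood apart. In ET it read 7.85, 6.61, 7.86 and 8.09 and in IT 7.96, 9.08, 8.01 and 8.72. *Mmp13* was higher in KC than in EC, which read 12.42, 12.02, 12.04 and 12.42 (2.15 ± 0.57, adjusted p = 0.00669, and 0.0596 without replicate 2), while IC read 13.49, 13.44, 13.49 and 13.75. Its ET values were 12.72, 13.55, 12.67 and 12.79 and its IT values 13.58, 11.24, 13.69 and 13.54, so IT replicate 2 was the lowest liver sample.

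*Mmp2* was lower in KC than in EC, at 7.97, 8.44, 8.49 and 7.80, by 2.57 on the log2 scale (-2.57 ± 0.72, adjusted p = 0.0106, without overlap). This call was lost without replicate 2 (adjusted p = 0.061) or 3 (adjusted p = 0.0529), without the samples that stood apart (adjusted p = 0.0821), with the close EC samples averaged (adjusted p = 0.0692), and after normexp with quantile (-1.54, adjusted p = 0.0875) or loess normalization (-1.55, adjusted p = 0.0717). IC lay between them at 6.69, 6.79, 6.33 and 6.85, and ET read 7.76, 7.05, 7.95 and 7.98 and IT 6.87, 7.14, 7.0 and 6.62. The group means of *Mmp2* ran from the endothelial over the Ito to the Kupffer fraction in both conditions. The single steps missed the threshold, with 1.51 ± 0.72 between EC and IC (adjusted p = 0.23) and -1.05 ± 0.72 between KC and IC (adjusted p = 0.40), both without overlap.

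By their brightest probes *Adamts2*, *Adamts4*, *Adamts7* and *Adamts9* varied less among the liver cells than between liver and tumor cells. The other probe of *Adamts2* was called at 2.01 between EC and IC and at -1.78 between KC and EC, against -1.84 between TM and KC. That of *Adamts9* was called at 1.59 between ET and IT, against -1.88 between TP and KT. *Adamts2* read 11.55, 12.33, 12.32 and 11.53 in EC, 11.66, 11.33, 11.73 and 11.65 in ET, 10.38, 10.55, 10.47 and 10.11 in IC and 10.17, 12.02, 10.64 and 10.12 in IT. *Adamts4* read 13.89, 13.71, 13.49 and 13.92 in EC, 14.06, 12.22, 14.06 and 14.10 in ET, 14.22, 14.27, 14.24 and 12.36 in IC and 12.25, 9.74, 12.71 and 14.29 in IT. For *Adamts4* the IC and IT samples of replicate 4 each lay with the other group. *Adamts7* read 9.94, 10.02, 9.87 and 9.80 in EC, 11.17, 10.10, 11.29 and 11.07 in ET, 10.09, 10.16, 9.90 and 9.44 in IC and 9.44, 9.16, 9.54 and 10.28 in IT. *Adamts9* read 10.48, 10.55, 10.62 and 10.58 in EC, 10.42, 10.80, 10.72 and 10.59 in ET, 10.85, 10.93, 10.82 and 9.42 in IC and 9.07, 8.81, 9.42 and 10.81 in IT. Again replicate 4 of *Adamts9* in IC and IT lay opposite to replicates 1 to 3.

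Between TME and control cells no probe of the family was called in any of the 3 cell types. Of all probes, 1.14% were called in the endothelial, 0.289% in the Ito and 0.436% in the Kupffer comparison. At an unadjusted p under 0.05 stood 10 probes in endothelial cells, 9 higher and 1 lower in ET, 10 in Ito cells, 7 higher and 3 lower in IT, and 2 in Kupffer cells, both lower in KT. Of all probes 7.71, 9.88 and 7.37% stood there. The changes did not differ between cell types at an adjusted p under 0.05 either, with 0 probes called in each of the 3 tests of a difference between changes, against 0.111, 0.0808 and 0.00359% of all probes.

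*Timp1* was higher in the TME sample on all endothelial arrays and on most arrays of the other cell types. It read 12.06, 12.65, 12.64 and 12.18 in EC and 13.40, 13.75, 13.32 and 13.61 in ET, higher on 4 of 4 arrays and without overlap (1.14 ± 0.51, adjusted p = 0.539). It read 10.82, 11.06, 10.64 and 12.84 in IC and 13.04, 14.62, 12.82 and 11.05 in IT, higher on 3 of 4 arrays (1.54 ± 0.51, adjusted p = 0.299). With the Kupffer values given above it was higher on 3 of 4 arrays there (0.91 ± 0.51, adjusted p = 0.741). In Ito and Kupffer cells it was array 4 that ran the other way.

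Without replicate 4 the Ito comparison called 7 probes of the family, 4 higher and 3 lower in IT, against 6.56% of all probes. *Timp1* was then higher by 2.65 in log2 units, 6.28-fold (adjusted p = 2.38e-04), and *Adamts4* had a difference of -2.68 (adjusted p = 0.00596) with its other probe at -2.47. *Mmp25* (1.33, adjusted p = 0.0192), *Mmp17* (0.85, adjusted p = 0.0228) and the other probe of *Timp2* (1.34, adjusted p = 0.00753) were higher, and the other probe of *Adamts9* lower (-2.30, adjusted p = 0.00135). In Kupffer cells 2 probes were called without replicate 4, against 1.80% of all probes: *Adamts1* was lower in KT (-1.36, adjusted p = 0.00969) and *Mmp9* higher (3.28, adjusted p = 0.0246). The test of a difference between the endothelial and the Ito change then called 1 probe, that of *Mmp25* (-2.03, adjusted p = 0.048), against 0.469% of all probes.

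With the arrays of replicate 4 of Ito and Kupffer cells and ET replicate 2, IT replicate 2 and KC replicate 3 left out, a choice made after seeing the data, *Timp1* was higher in TME cells of all 3 types. The difference was 1.06 in endothelial (adjusted p = 5.38e-05), 2.09 in Ito (adjusted p = 6.22e-08) and 1.11 in Kupffer cells (adjusted p = 2.74e-04). The family then had 3, 7 and 4 calls against 3.50, 12.7 and 5.24% of all probes. In this fit, which kept IT replicates 1 and 3 and KC replicates 1 and 2, *Timp1* rose more in Ito than in endothelial cells (endothelial minus Ito -1.03, adjusted p = 0.00535). The rise was also larger than in Kupffer cells (Ito minus Kupffer 0.97, adjusted p = 0.0406), where 5.49 and 1.13% of all probes were called in the 2 tests. Samples that ran against their group were among those left out, which narrows the spread, so these p-values cannot settle the point. With all samples neither difference was called.

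In the endothelial cells alone, a fit of ET and EC without the other groups called 7 probes, against 5.29% of all probes. *Timp1* (adjusted p = 0.0105), *Mmp11* (1.21, adjusted p = 0.0264), *Mmp12* (1.83, adjusted p = 0.0032), *Mmp8* (adjusted p = 0.0285) and *Mmp9* (adjusted p = 0.0224) were higher in ET, and *Timp3* (-0.88, adjusted p = 0.0317) and *Adamts1* (-0.44, adjusted p = 0.0427) were lower. *Mmp8* and *Mmp9*, collagenase and gelatinase of neutrophil granules, were well above background in 3 of 4 ET samples and 0 of 4 EC samples, at least 1.38-fold and at least 1.33-fold higher. These 2 genes were named after their values were seen. None of these genes was called in the fit of all groups, where *Mmp12* had an adjusted p of 0.53 and *Mmp11* of 0.272.

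**Figure D4:**
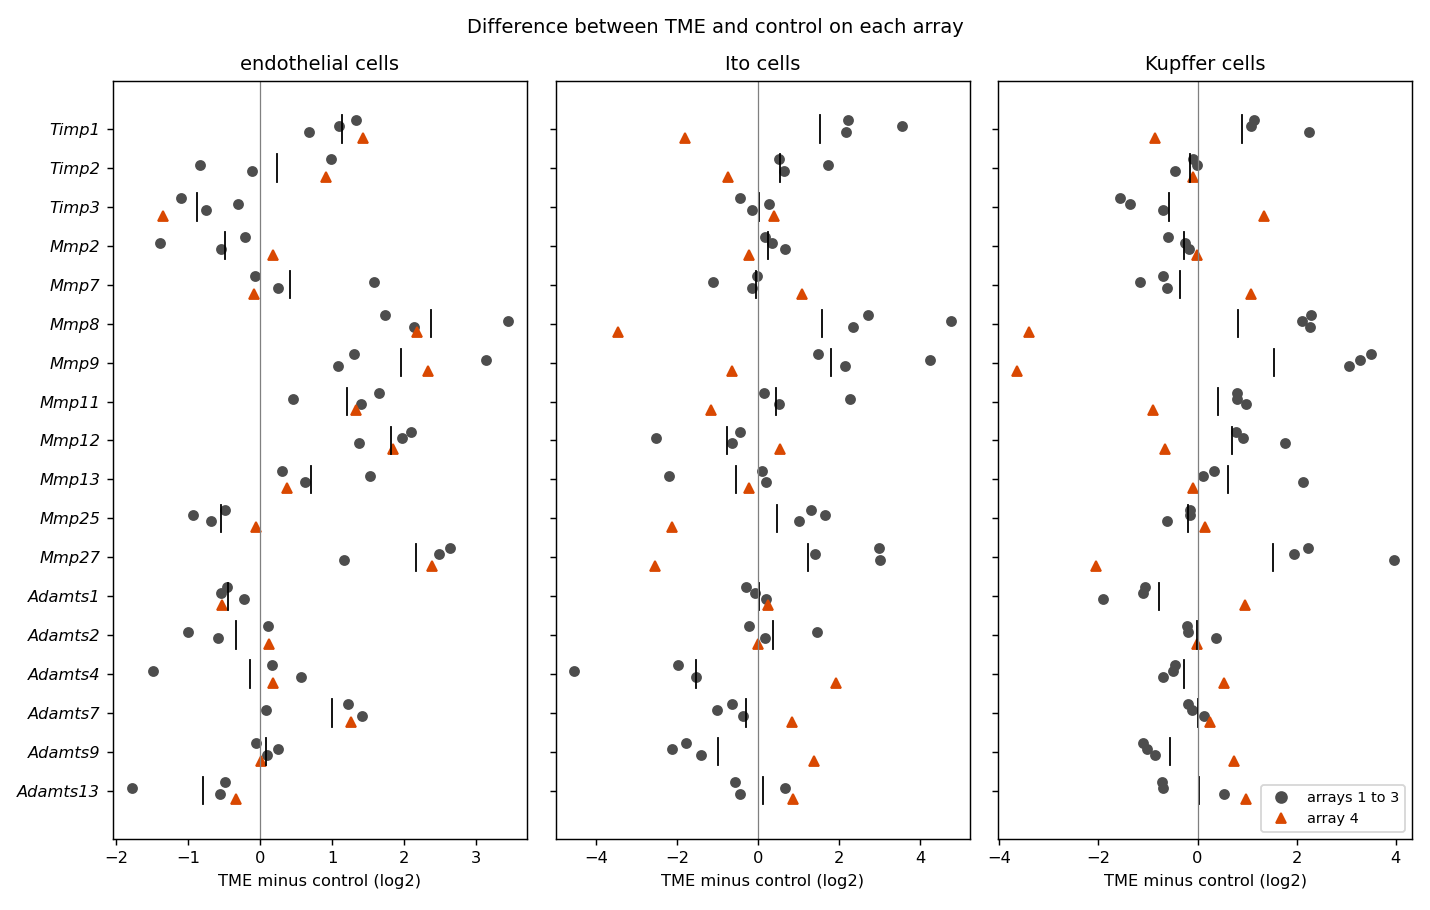
For 18 genes of the family each symbol is the difference between the TME and the control sample of 1 array, in log2 units, and the bar is the mean of the 4 arrays. In endothelial cells the symbols of *Timp1*, *Mmp8*, *Mmp9*, *Mmp11*, *Mmp12* and *Mmp27* all lie above 0, and in Ito and Kupffer cells the triangle of array 4 lies opposite to the circles for *Timp1*, *Mmp8* and *Mmp27*.

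Neutrophil markers moved with these values. The summed level of the 9 measured neutrophil markers, on a log2 scale, was 9.83 to 10.29 in EC and 11.89 to 13.02 in ET. It was 10.37 to 10.53 in IC replicates 1 to 3 but 13.87 in replicate 4, and 13.06 to 14.29 in IT replicates 1 to 3 but 10.72 in replicate 4. In Kupffer cells it was 11.60 to 12.02 in KC replicates 1 to 3 and 13.74 in replicate 4, against 13.44 to 13.54 and 11.72 in KT. Hepatocyte markers also moved: their sum was 14.85 to 15.03 in EC and 13.62 to 15.09 in ET. None of the 9 neutrophil markers was called between ET and EC, and 3 of the 8 hepatocyte markers were lower in ET. The part of neutrophils or hepatocytes in the values of *Timp1*, *Mmp8* and *Mmp9* was not tested.

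A group of 10 Mmp genes lies side by side on chromosome 9, from the probe of *Mmp13* at chr9:7282762-7282821 to that of *Mmp7* at chr9:7697641-7697700 (mm9), a span of 415 kb. The probes follow in the order *Mmp13*, *Mmp12*, *Mmp1b*, *Mmp3*, *Mmp1a*, *Mmp10*, *Mmp8*, *Mmp27*, *Mmp20* and *Mmp7*, and the group holds collagenases, stromelysins, the macrophage elastase and matrilysin. Of these genes 6 were well above background in all 24 liver samples and 8 in at least 1 sample. In TM 6 of the 10 were lower than in KC and none was higher, where 16.2% of all probes were lower and 23.3% higher, and in TP 4 were lower than in KT, where 17.8% of all probes were. Without TM replicates 2 and 3, 3 of these 6 were still called, *Mmp13*, *Mmp10* and *Mmp7*. In KC 3 were higher than in EC, *Mmp13*, *Mmp12* and *Mmp7*, where 8.95% of all probes were. *Mmp10* was higher in ET than in IT (3.20 ± 0.94, adjusted p = 0.0334), and *Mmp7* lower, so the genes of the group called there differed in direction. The call of *Mmp10* was lost without replicate 1 or 3 and in the fit of the groups compared, and that of *Mmp7* without replicate 1 or 4.

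RefSeq promoters (GRCm38.p6) were given for 32 of the 46 genes. The letters TGANTCA, the core of the AP-1 binding motif, were searched on both strands in the 250 bases before the start site. They occurred before 1 or more starts of 8 of the 10 chromosome 9 genes, all but *Mmp8* and *Mmp27*, and before 0 of the 22 others. Counted in the same way, 7.82% of the 27025 genes with promoters hold them, and 6.75% of the 32851 promoters do. *Mmp12* and *Mmp7* each have another start without them. In *Mmp20* the match reads TGAATCA, and in the others TGAGTCA or TGACTCA. A match describes the letters of this window and nothing about binding. The 100 bases before the start are shown 5′ to 3′ on the gene's strand for 6 of these genes, chosen because they include the 5 with the match that were lower in TM than in KC (*Mmp13*, *Mmp12*, *Mmp3*, *Mmp10* and *Mmp7*) and *Mmp1a*, which was well above background in no sample, with the motif in capitals.
Mmp13 (chr9:7272414-7272513, plus strand): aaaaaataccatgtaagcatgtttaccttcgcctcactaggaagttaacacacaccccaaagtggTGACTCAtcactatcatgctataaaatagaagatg
Mmp12 (chr9:7347274-7347373, plus strand): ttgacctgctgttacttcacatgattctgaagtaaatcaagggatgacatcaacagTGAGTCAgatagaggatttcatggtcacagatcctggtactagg
Mmp3 (chr9:7445722-7445821, plus strand): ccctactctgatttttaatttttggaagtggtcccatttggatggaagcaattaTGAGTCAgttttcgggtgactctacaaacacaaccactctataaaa
Mmp10 (chr9:7502242-7502341, plus strand): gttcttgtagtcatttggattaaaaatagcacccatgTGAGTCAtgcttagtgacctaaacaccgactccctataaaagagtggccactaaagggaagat
Mmp7 (chr9:7691990-7692089, plus strand): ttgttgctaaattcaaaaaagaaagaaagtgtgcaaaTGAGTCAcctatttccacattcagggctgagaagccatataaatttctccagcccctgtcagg
Mmp1a (chr9:7464041-7464140, plus strand): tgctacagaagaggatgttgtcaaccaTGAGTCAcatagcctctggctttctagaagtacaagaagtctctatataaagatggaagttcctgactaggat
The motif began 35 bases before the start of *Mmp13*, 44 before *Mmp12*, 46 before *Mmp3*, 63 before *Mmp10* and *Mmp7* and 73 before *Mmp1a*.

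**Figure D5:**
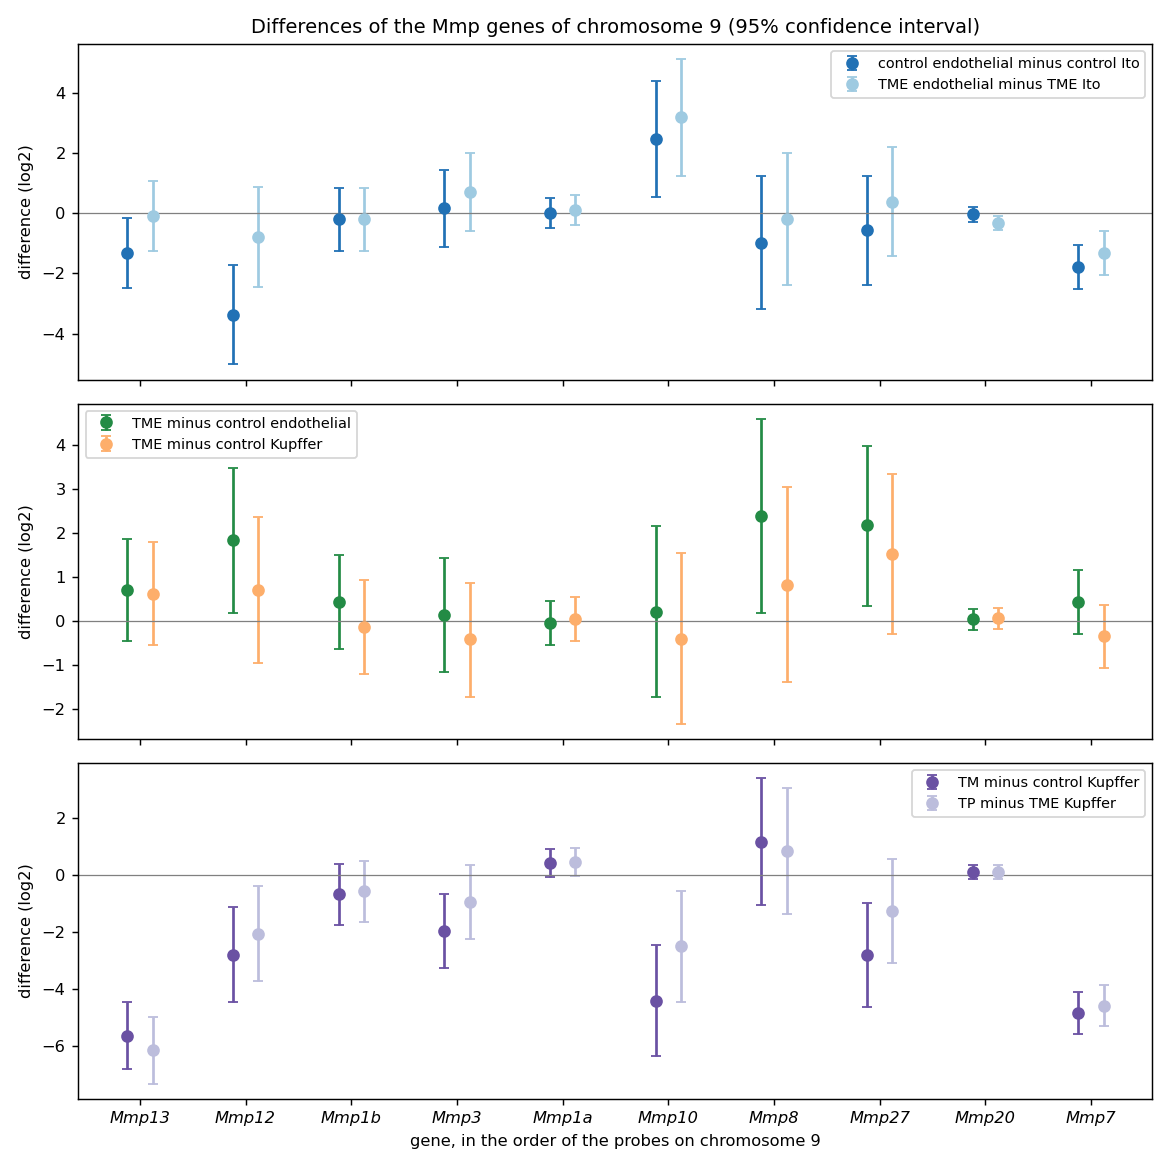
The 10 Mmp genes of chromosome 9 stand in the order of their probes, and each point is a fitted difference in log2 units with its 95% confidence interval, for the endothelial and Ito fractions (top), TME and control in endothelial and Kupffer cells (middle) and tumor and Kupffer cells (bottom). In the bottom panel *Mmp13*, *Mmp12*, *Mmp10* and *Mmp7* lie below 0 in both comparisons, and in the middle panel the points of *Mmp12*, *Mmp8* and *Mmp27* lie above 0 in endothelial cells.

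A list of 28 genes whose products activate, bind or restrain these proteases was counted in the same way. None was called between TME and control cells. Between TM and KC 8 were higher and 13 lower, with a median difference of -0.58 against 0.08 for all probes, and between TP and KT 7 were higher and 13 lower, with a median of -1.06 against 0.10. Of all probes 39.4% were called in the former (23.3% higher and 16.2% lower) and 43.6% in the latter (25.7% and 17.8%). *Reck*, a membrane-anchored inhibitor of MMPs, was higher in TM (1.62 ± 0.23, adjusted p = 1.56e-06) and in TP (1.5 ± 0.23, adjusted p = 4.72e-06). *Pcolce*, the enhancer of procollagen C-proteinase, was higher by 5.79 and 5.66. *Plat*, the tissue plasminogen activator, was higher by 3.09 and 3.91. *Thbs1* and *Thbs2*, matrix proteins that bind MMP2, differed by -5.49 and 6.92 in TM and by -4.21 and 7.13 in TP. The genes named here were picked after their values were seen and do not stand for the list, of which more were lower than higher. Between TP and TM the urokinase gene *Plau* was higher in TP (4.14, adjusted p = 0.0364) and *Adamtsl4*, an ADAMTS-like protein without protease activity, lower (-1.29, adjusted p = 0.034).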

How the data were processed

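Gene expression was measured on 16 Agilent two-colour mouse arrays with 60-base probes, which per the file headers were extracted with Agilent Feature Extraction 10.7.3.1, including background subtraction and dye normalization within the array. The authors quantile normalized the processed signals and deposited 1 linear intensity per probe and sample. The ranks of these values followed the scanner's processed signal (Spearman's rho at least 0.99958). The flag for a spot well above background was taken from the deposited scanner files as well. Array number, not counting, limits the precision.

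The deposited intensities were put on a log2 scale and fitted with limma 3.58.1 in R 4.3.3 (lmFit and eBayes), with 1 mean for each of the 8 groups and p-values were adjusted by Benjamini and Hochberg's method over the 55681 probes. The threshold for a call was an adjusted p under 0.05, and the limits of the methods (adjusted p under 0.001 and 4-fold) were a second rule. The ± of a difference is its SE. Tables and figures were made with Python 3.11.15, pandas 2.3.3 and matplotlib 3.10.9, and the scripts were tested on simulated data. "At least" folds were taken from normexp (offset 50), loess and Aquantile values of the scanner's mean and background signals.

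The members and the gene lists were chosen with earlier results of these data known. Values in every sample are given for the 4 TIMPs, for any gene called between TME and control cells, and for the 12 genes with the widest range of group means among those well above background on all 4 arrays of a group, which made 14 genes. Other genes with values were named after these were seen.

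Alternatives were the scanner's processed signal with quantile normalization, normexp with quantile or loess normalization, scaling to the 75th percentile, a filter on dim probes (29017 kept), fits of the groups compared or of 1 slide, the methods' t-test, the array or replicate number as a block, the probe of highest variance, and each replicate left out. Further sets of samples were left out or averaged after seeing the data. TME and control samples of a number share an array, as the files show. The correlation of their deviations from the group means ran from 0.051 to 0.403 in endothelial, -0.645 to 0.232 in Ito, -0.569 to 0.126 in Kupffer and -0.167 to 0.183 in tumor cells.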

Additional observations from a re-analysis of the deposited data

Results flagged for a closer look

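Among the 14 genes with values in every sample, 18 groups of 4 had 1 sample whose gap to the nearest other, divided by the range, was above Dixon's critical value of 0.829. Chance alone flags about 1 group in 20.

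In ET it was replicate 2 in each case. *Adamts13* read 6.61 there against 7.85 to 8.09 in the others, *Adamts4* 12.22 against 14.06 to 14.10, and *Mmp11* 7.02 against 7.94 to 8.07. *Timp2* read 11.45 against 12.10 to 12.13, and *Mmp13* 13.55 against 12.67 to 12.79. In IT replicate 2 *Mmp13* read 11.24 against 13.54 to 13.69 and *Timp3* 13.57 against 12.87 to 12.98.

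In replicate 4 of the Ito and Kupffer cells, *Adamts4* read 12.36 in IC against 14.22 to 14.27 and *Adamts9* 9.42 against 10.82 to 10.93. In KT replicate 4 *Adamts4* read 13.71 against 13.15 to 13.21, *Adamts9* 10.09 against 8.98 to 9.05, *Mmp7* 7.24 against 6.40 to 6.53 and *Timp1* 12.58 against 13.46 in each of the others. These are the samples that over all probes lay nearest to the opposite group.

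*Mmp25* read 8.10 in KC replicate 3 against 7.78 to 7.83. Among values not well above background, *Mmp25* read 3.18 in TP replicate 4 against 2.58 to 2.65, *Mmp7* 3.14 in TM replicate 4 against 1.85 to 1.86, *Timp4* 3.25 in KC replicate 2 against 2.29 to 2.36 and *Timp4* 4.12 in TM replicate 4 against 2.31 to 2.42.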

How the results depend on the processing

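Of the 38 calls of named genes, none changed direction under any alternative. Calls of the family between TME and control were 0 in each cell type but turned on the samples: in endothelial cells 7 in the fit of the groups compared, 2 by the methods' t-test, 1 without the Ito and Kupffer arrays of replicate 4 and 3 without the samples that stood apart. In Ito cells they were 0 to 7 with 1 replicate left out and 7 without the samples that stood apart, and in Kupffer cells 0 to 2 and 4. The shares of all probes called were 5.29, 4.01, 1.64 and 3.50% in the endothelial settings, in that order. They were 0.199 to 6.56% and 12.7% in Ito cells and 0.239 to 1.80% and 5.24% in Kupffer cells. Between TP and TM (2 calls) there were 0 at the methods' limits, after normexp with quantile or loess, at the 75th percentile, with the filter on dim probes, in the fit of the groups compared and by the t-test, 1 on the slide of both groups, 0 to 7 with 1 replicate left out, 4 without the samples that stood apart and 1 without TM replicates 2 and 3. From normexp to the t-test 0.361 to 1.70% of all probes were called, and 1.23% on the slide of both groups. In the last 3 settings the shares were 1.32 to 7.96%, 4.96% and 0.923%. Between EC and IC (9) there were 3 at the methods' limits, 15 in the fit of the groups compared, 5 to 11 with 1 replicate left out, 17 without the samples that stood apart and 5 with close EC samples averaged. Apart from the methods' limits, 13.6, 4.85 to 9.29, 17.7 and 4.30% of all probes were called in these settings, in that order. Between ET and IT (9) there were 0 at the methods' limits, 2 in the fit of the groups compared, 2 by the t-test, 1 to 10 with 1 replicate left out and 14 without the samples that stood apart. The shares of all probes after the methods' limits were 3.71, 4.14, 4.53 to 9.22 and 14.9%. Between KC and EC (12) there were 3 at the methods' limits, 19 in the fit of the groups compared, 7 to 10 with 1 replicate left out and 6 with close EC samples averaged, where *Mmp13* (adjusted p = 0.0515) and *Mmp2* (adjusted p = 0.0692) were lost. The shares of all probes after the methods' limits were 21.6, 15.3 to 17.0 and 13.0%. Between KC and IC (4) there were 1 at the methods' limits, 2 to 4 with 1 replicate left out and 7 without the samples that stood apart. The shares of all probes were 9.97 to 13.4% with 1 replicate left out and 16.7% without the samples that stood apart. Between TP and KT (33) there were 13 at the methods' limits. Tests of a difference between changes (0) gave, for endothelial against Ito cells, 0 to 1 with 1 replicate left out, 2 without the Ito and Kupffer arrays of replicate 4 and 4 without the samples that stood apart, and without these 1 for each other pair. The shares of all probes were 0.0216 to 0.469, 1.67 and 5.49%, and 1.47 and 1.13% for the other pairs. Where a cause is not part of the alternative's own construction, it was not tested. With the array as a block the TME comparisons had 0, 0 and 0 calls, TP and TM 2 and the tests between changes 0. All probes were called there at 0.697, 0.465 and 0.406% in the TME comparisons and at 3.20% between TP and TM. With the replicate number as a block there were 9 calls between EC and IC, 8 between ET and IT, 13 between KC and EC, 4 between KC and IC, 30 between TM and KC and 33 between TP and KT. The shares of all probes were 9.69, 8.12, 21.0, 14.7, 39.6 and 43.7%, in that order. Not all same-numbered samples correlated above 0.1, so the number is not a pairing beyond the shared array. Levels not well above background limit the folds of *Mmp7*, *Mmp25* and *Adamts13* in tumor cells, and of *Adamts2* in TP, to lower bounds, and the sizes given for *Adamts7*, *Adamts10*, *Mmp17* and *Mmp25* depend on the background correction.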
